A study of Mus musculus with 16 samples.

Results

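Brown adipose tissue (BAT) and gonadal white adipose tissue (gWAT) of adipose tissue-specific Pgam1 knockout (Adipo-Pgam1 KO) mice were compared on 8 of the 16 arrays of the series, 4 labelled BAT-KO and 4 labelled gWAT-KO, chosen by their sample titles. The mice were male C57BL/6NCrSlc carrying floxed Pgam1 on both alleles. Knockouts also carried Cre recombinase driven by the adiponectin promoter, which acts in adipocytes, and littermate controls (4 BAT-WT and 4 gWAT-WT arrays) carried the floxed alleles without Cre. Age was 16 weeks, except for replicate 4 of both knockout tissues, which was 14 weeks old. RNA came from whole tissue, so other cells of the fat pad kept Pgam1, and each array is treated as a separate animal, as no label says otherwise. The labels do not say which mouse gave which pair of tissues. P-values therefore measure the spread between these samples.

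Brown adipocytes burn fatty acids in dense mitochondria, where uncoupling protein 1 (Ucp1) lets protons leak back across the inner membrane so that the energy is released as heat. Noradrenaline acting through beta-adrenergic receptors and cAMP raises this programme, and the coactivator Ppargc1a is among its main relays. White adipocytes of the gonadal depot store triglyceride and secrete adipokines, and their precursors come from a visceral lineage that expresses Wt1, whereas interscapular brown fat descends from dorsal mesoderm and expresses genes such as Zic1 and Tbx15. Fat depots also keep distinct sets of Hox genes, which record position along the body axis.

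All levels below are the log2 of a probe's intensity over its array's 75th percentile, listed for replicates 1 to 4, and a difference is BAT-KO minus the gWAT arrays labelled KO on that scale. The gene targeted by the knockout did not follow its label in gWAT. Pgam1, which encodes the glycolytic enzyme phosphoglycerate mutase 1, ranged from 6.04 to 6.43 in BAT-KO and from 5.95 to 6.50 in gWAT labelled KO, so that the tissues overlapped. The means were 6.20 ± 0.17 (SD, n = 4) and 6.31 ± 0.25 (SD, n = 4), a difference of -0.12 (two-sided exact permutation test, p = 0.4571). The second Pgam1 probe differed by -0.05 (two-sided exact permutation test, p = 0.7714). In controls, Pgam1 was 2.58 higher in BAT than in gWAT (p = 0.0286 by the same exact test, which cannot go lower with 4 arrays a group). BAT-KO differed from BAT-WT by -1.74, whereas the gWAT arrays labelled KO were 0.95 above those labelled WT (p = 0.0286 in each, two-sided exact permutation test). Among 16-week mice alone Pgam1 passed the test between the knockout-labelled tissues, at -0.31 (adjusted p = 0.0393). The exons removed by Cre are not named in the sources used here, so the position of the probes relative to the deletion is unknown. By PCR and western blot the paper reports less Pgam1 in gWAT of these knockouts. It also reports lower enzyme activity and more 3-phosphoglycerate, the substrate of the enzyme. By PCR and staining it reports more Ucp1 and Cpt1b there, and by transcriptomic analysis higher expression of glycolytic and TCA cycle enzymes. Ucp1, Cpt1b and Cox6a2, chosen after their values were seen, were higher in the gWAT arrays labelled KO than in those labelled WT. The share of all genes that stood apart between these gWAT labels was not computed. The direction of Ucp1 and Cpt1b was thus the one the paper reports, and that of Pgam1 was not. Their means were -1.58, 1.88 and 4.03 in gWAT labelled KO and -5.63, -2.36 and -2.20 in gWAT labelled WT, where Ucp1 was not well above background. Whether labels were exchanged was not tested. The gWAT arrays are therefore named by their label throughout, and each difference between depots rests on that label.

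The 3 slides also divided the tissues. All 4 BAT-KO arrays lay on slide 2 and all 4 gWAT arrays labelled KO on slide 3, which was scanned on the other of 2 days, so that among these 8 arrays slide and tissue cannot be told apart. The share of probes well above background lay between 50% and 60.6% on each of the 8 arrays, and each array correlated better with the other arrays of its group than with any other group. Skeletal muscle transcripts stood apart on 2 of the BAT-KO arrays. Tnnt3, a fast-muscle troponin, was 4.32, -2.95, 1.78 and -2.81 in BAT-KO and from -3.59 to -3.02 in the gWAT arrays labelled KO. Replicates 1 and 3 of BAT-KO thus carried it far above the other 6 arrays. Without these 2 arrays, 4794 genes passed the test, and 90 of the 98 called genes named here kept their call. Adipocyte markers such as Adipoq and Plin1 were well above background on every array of both tissues.

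Of 14449 genes tested, 6664 (46.1%) passed an adjusted p of 0.05 between BAT-KO and the gWAT arrays labelled KO, of which 3387 (23.4% of those tested) were higher in BAT and 3277 (22.7%) higher in gWAT. Over all genes tested the median difference was 0.05 and the median absolute difference 0.42. Differences of at least 8-fold were more often toward gWAT, with 220 genes against 113 toward BAT. In 43.1% of all genes tested the arrays of both tissues stood fully apart. How the calls split between the tissues depended on the scaling. Of all calls 50.8% were higher in BAT here, 30.4% under scaling by the spike-in probes and 30.9% under scaling by the genes Actb and Rplp0, which moved the median difference of all genes to -0.13 and -0.15. With the slide as a fixed block on all 16 arrays, which links slides through single control arrays, 1783 genes passed, 832 higher in BAT and 951 higher in gWAT, and the median standard error over all genes tested rose from 0.16 to 0.32.

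The same depot contrast in littermate controls, which shares no array with the knockout contrast, gave 9254 calls among 14304 genes tested (64.7%), 5070 higher in BAT (35.4%) and 4184 higher in gWAT (29.3%). Among the 13933 genes tested in both, 3555 were called in the same direction in both and 749 in opposite directions. Those 3555 genes were 39.6% of the control calls and 56.1% of the knockout calls. Over all 13933 genes tested in both, the difference between depots was smaller in size in knockout-labelled arrays for 66.5%. When the change in the depot difference was itself tested on all 16 arrays, 7162 of 14820 genes passed (48.3%). Relative to controls, 3105 moved toward BAT (21.0%) and 4057 toward gWAT (27.4%). Slides divided the controls too. Replicates 1 to 3 of BAT-WT lay on slide 1, which held no other group, and replicate 4 on slide 2. Replicates 1 to 3 of gWAT labelled WT lay on slide 2 and replicate 4 on slide 3. A change from controls was thus largely confounded with slide. With the slide as a fixed block 3265 genes passed for the change, and the changes given below are without that block. Genes higher in BAT-WT had a median difference of 0.96 in controls and 0.25 in knockout-labelled arrays. Those higher in gWAT-WT had medians of -1.28 and -0.41. Both sets were chosen by their calls in controls, which by itself favours larger differences there, and the drop in these medians was not tested.

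**Figure D1:**
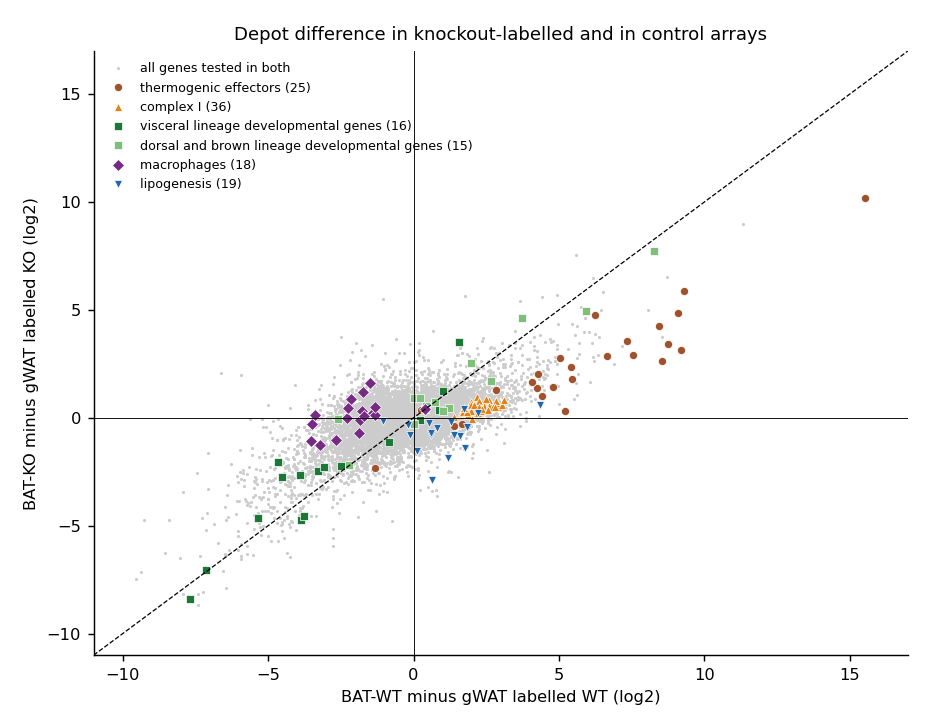
Depot difference of every gene tested in both contrasts, in control arrays (x axis, BAT-WT minus gWAT labelled WT, log2) and in knockout-labelled arrays (y axis, BAT-KO minus gWAT labelled KO, log2). Each grey point is a gene, coloured symbols are members of 6 lists, and on the dashed line the differences are equal. Most thermogenic and all complex I genes lie below the line on the right, most visceral developmental genes lie at the lower left, and macrophage genes lie around 0 on the y axis.

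The brown fat programme remained higher in BAT-KO, at smaller differences than in controls. Of 25 thermogenic effectors tested, 19 were higher in BAT-KO and 1, the beta-3 adrenergic receptor Adrb3, was higher in the gWAT arrays labelled KO. Their median difference was 2.36, against 0.05 over all genes tested and 5.41 for the same genes in controls. The depot difference of 22 of the 25 had moved toward gWAT relative to controls, and none had moved toward BAT. In a bulk tissue, fewer cells of a type and less RNA per cell cannot be told apart.

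The proximal promoters of 3 genes that carry these results are shown from RefSeq (GRCm38.p6), 250 bases before to 50 after the start site and 5′ to 3′ on the strand of the gene. Ucp1 had the largest difference toward BAT of the thermogenic effectors, Ppargc1a had a depot difference that did not shrink, and Cox7a1 had one that did. Capitals mark TGACG or its complement CGTCA, the core of the cAMP response element. Ucp1 lies at chr8:83290098-83290397 (plus strand), Ppargc1a at chr5:51567676-51567975 (minus strand) and Cox7a1 at chr7:30183921-30184220 (plus strand).
Ucp1: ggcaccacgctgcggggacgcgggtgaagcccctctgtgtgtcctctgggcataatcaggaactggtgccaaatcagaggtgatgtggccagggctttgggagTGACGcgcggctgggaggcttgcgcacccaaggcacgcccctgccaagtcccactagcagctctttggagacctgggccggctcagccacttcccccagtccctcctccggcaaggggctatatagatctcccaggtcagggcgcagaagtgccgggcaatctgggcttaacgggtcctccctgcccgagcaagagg
Ppargc1a: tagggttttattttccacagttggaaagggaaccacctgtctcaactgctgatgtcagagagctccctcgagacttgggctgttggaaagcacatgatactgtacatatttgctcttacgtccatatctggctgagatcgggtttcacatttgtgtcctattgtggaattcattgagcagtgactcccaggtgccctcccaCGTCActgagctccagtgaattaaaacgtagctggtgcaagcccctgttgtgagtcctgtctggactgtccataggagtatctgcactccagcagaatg
Cox7a1: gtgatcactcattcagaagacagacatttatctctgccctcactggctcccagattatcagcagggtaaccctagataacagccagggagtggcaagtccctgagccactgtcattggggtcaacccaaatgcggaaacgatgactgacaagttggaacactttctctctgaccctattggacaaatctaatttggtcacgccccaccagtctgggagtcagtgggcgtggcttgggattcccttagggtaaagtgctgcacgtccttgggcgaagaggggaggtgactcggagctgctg
The motif starts at -147 in Ucp1 and at -49 in Ppargc1a, counted from the start site, and these letters are not in the Cox7a1 window. On either strand it occurs in 6837 of the 32851 promoters of this length in the table (20.8%), in 7 of 23 promoters of thermogenic effectors (30.4%), 6 of 27 of brown fat regulators (22.2%), 4 of 28 of white fat genes (14.3%), 4 of 18 of visceral genes (22.2%) and 7 of 17 of dorsal genes (41.2%).

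Ucp1, the uncoupling protein, was 8.26, 8.69, 8.46 and 9.08 in BAT-KO and -0.15, -1.53, -1.09 and -3.54 in the gWAT arrays labelled KO. The tissues did not overlap, and replicate 4 of gWAT was not well above background. The difference was 10.20 (SE 0.62, adjusted p = 8.21e-06). In controls, where no gWAT array was well above background, Ucp1 was at least 20800-fold higher in BAT. Such bounds set the mean of the tissue with signal against, on each array of the other, the higher of the probe's own value and the dimmest signal well above background. Cidea, a lipid droplet protein of brown fat, was 9.10, 9.09, 8.92 and 9.58 in BAT-KO and 6.99, 6.32, 6.21 and 5.51 in the gWAT arrays labelled KO. Its difference of 2.92 (SE 0.29, adjusted p = 9.83e-05) compares with 7.56 in controls. The respiratory chain subunits Cox7a1 and Cox8b, isoforms of brown fat and muscle, differed by 3.54 (SE 0.28) and 1.80 (SE 0.28), and in controls by 7.35 and 5.46. Cpt1b, which admits fatty acids to mitochondria, was 4.60, 4.33, 4.32 and 4.73 in BAT-KO and 2.83, 1.86, 1.98 and 0.84 in gWAT. The difference was 2.62 (SE 0.36), which had moved by -5.93 from that in controls (SE 0.44, adjusted p = 1.7e-06), nearly as far as that of the proton channel Otop1, at -6.05 (SE 0.58, adjusted p = 6.52e-06).

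Other effectors followed in the same direction. The fatty acid-binding protein Fabp3 differed by 4.88 (SE 0.35), the elongase Elovl3 by 3.44 (SE 0.51), Otop1 by 3.14 (SE 0.22) and the potassium channel Kcnk3 by 1.01 (SE 0.24). Dio2, the deiodinase that activates thyroid hormone, differed by 5.90 (SE 0.68, adjusted p = 2.17e-04), with replicates 3 and 4 of gWAT not well above background. S100b, a calcium-binding protein of brown adipocytes and Schwann cells, was 4.74 higher in BAT-KO (SE 0.26). Beside it, and counting S100b itself, 5 of 8 nerve and glia markers were higher in BAT-KO and 1 was higher in gWAT, and their mean level was 0.49 to 0.79 in BAT-KO and -1.01 to -0.73 in gWAT. The part of nerve RNA in S100b was not tested. Under the slide block the calls of Cox8b (1.67), Dio2 (4.36), Otop1 (2.58), Kcnk3 (1.85) and Elovl3 (0.55) were lost, and the difference of Elovl3 alone fell below 1. Ucp1 differed by 10.46 without the muscle-bearing arrays and by 11.11 with the slide as a block.

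**Figure D2:**
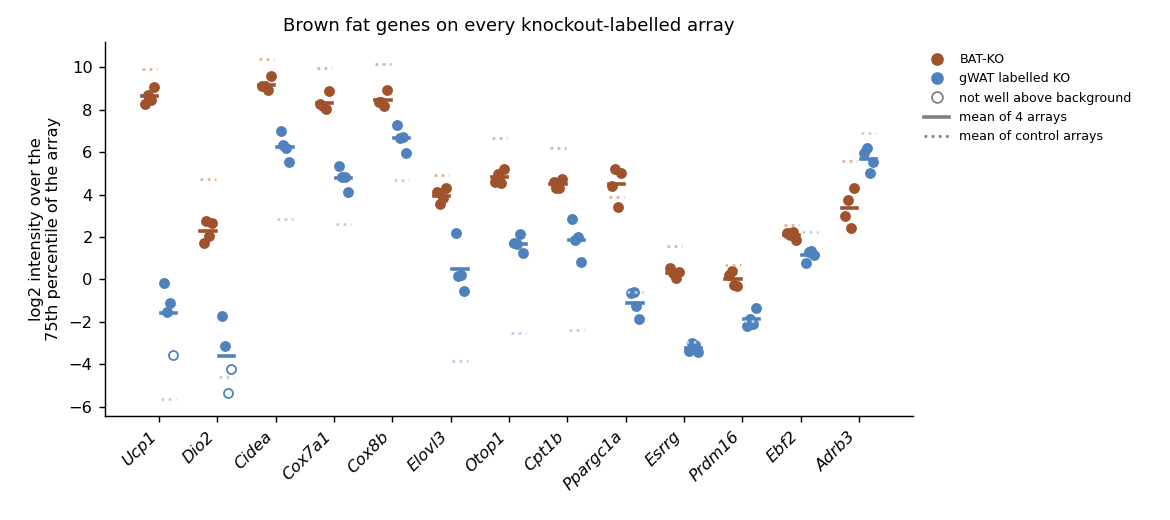
Level of 13 brown fat genes on each knockout-labelled array (y axis, log2 intensity over the 75th percentile of the array), with BAT-KO in brown and gWAT labelled KO in blue. Open symbols are arrays on which the probe was not well above background, solid bars are means of 4 arrays and dotted bars means of the 4 control arrays of the tissue. The tissues do not overlap in any of the 13 genes, and Adrb3 is the only 1 of them that is higher in gWAT.

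Regulators of the programme were mostly higher in BAT-KO, where 23.4% of all genes tested were higher and 22.7% lower. Of 24 tested, 15 were higher in BAT-KO and 3 (Foxc2, Bmp7 and Hmgn3, named after their values were seen) higher in the gWAT arrays labelled KO. The median difference was 0.91, against 1.05 in controls, where, as for every list below, it is taken over the members tested there. Ppargc1a was 4.39, 5.20, 3.39 and 5.01 in BAT-KO and -0.63, -0.59, -1.25 and -1.88 in gWAT. The difference of 5.58 (SE 0.43, adjusted p = 2.57e-05) was not shown to differ from the 4.43 in controls (change 1.15, SE 0.67, adjusted p = 0.168). The same held for the estrogen-related receptor Esrrg, with 3.52 (SE 0.15) against 4.51 (adjusted p of the change 0.0801), and for the early B cell factor Ebf2, with 0.96 (SE 0.15) against 0.36 (adjusted p of the change 0.0656). In contrast, the fatty acid sensor Ppara differed by 2.17 (SE 0.19) against 4.44, a change that passed the test (adjusted p = 1.73e-04). Prdm16, a determinant of brown fate, differed by 1.88 (SE 0.23) against 2.67 (adjusted p of the change 0.0458). All 5 remained called with the slide as a block.

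In adrenergic and cAMP signalling the members went both ways. Of 20 genes tested, 8 were higher in BAT-KO and 7 higher in gWAT, with a median of 0.24. The alpha-1A receptor Adra1a was 3.10 higher in BAT-KO (SE 0.23), where 1 of 4 gWAT arrays was well above background, and the beta-1 receptor Adrb1 was 2.32 higher (SE 0.28). Adrb3 was 3.0, 3.75, 2.41 and 4.32 in BAT-KO and 5.94, 6.21, 5.01 and 5.53 in the gWAT arrays labelled KO, a difference of -2.30 (SE 0.42, adjusted p = 0.00234). The adenylate cyclase Adcy5 differed by -4.14 (SE 0.23). These 4 calls held with the slide as a block.

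A list of 11 beige genes on the array, written from the primers the study itself used on these tissues and so no independent evidence, had 10 members tested. Of these, 7 were higher in BAT-KO and 3 higher in gWAT (Egln3, Tbx1 and, named after its value was seen, Mtus1). Egln3, an oxygen-sensing prolyl hydroxylase, was between -2.50 and -2.16 in BAT-KO and 1.03, 0.02, 0.25 and -0.50 in gWAT. It had been 2.58 higher in BAT among controls, and the change of -5.08 (SE 0.34, adjusted p = 1.04e-06) turned its direction. Tnfrsf9, a receptor of activated T cells used as a beige marker, was not well above background in gWAT and at least 1.58-fold higher in BAT-KO. In creatine and calcium cycling 4 of 9 genes were higher in BAT-KO and 1, the creatine synthesis enzyme Gamt, was lower, at -2.06 (SE 0.23). Creatine kinase B (Ckb) differed by 0.42 (SE 0.22, adjusted p = 0.155). Under the slide block 6 beige genes were higher in BAT-KO and 3 in gWAT, and the call of Gamt was lost (-1.70). Tnfrsf9 lost its call in 16-week mice alone and without the muscle-bearing arrays.

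Fuel oxidation genes were mostly higher in BAT-KO, by smaller differences than in controls. Of 21 fatty acid oxidation genes, 15 were higher in BAT-KO and 2 higher in gWAT, with a median of 0.78, against 2.68 in controls. Acadl, the long-chain acyl-CoA dehydrogenase, differed by 1.40 (SE 0.20, adjusted p = 7.45e-04) and Hadha, of the trifunctional protein, by 0.78 (SE 0.20, adjusted p = 0.0121), against 4.03 for Hadha in controls. Cpt1a, the carnitine palmitoyltransferase of liver and white fat, was lower in BAT-KO, at -0.99 (SE 0.18). In the TCA cycle 14 of 18 genes were higher in BAT-KO and none in gWAT (median 0.79, against 2.60 in controls). Sucla2, a succinyl-CoA ligase subunit, differed by 2.08 (SE 0.15), and citrate synthase (Cs) by 0.43 (SE 0.19, adjusted p = 0.0915).

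In complex I, 16 of 36 were higher in BAT-KO and none in gWAT, with a median of 0.50, whereas all 36 were higher in BAT in controls, with a median of 2.26. The change passed the test and was toward gWAT in 36 of 36. Complexes III, IV and V had 7 of 10, 9 of 13 and 2 of 16 members higher in BAT-KO, and complex V also had 3 higher in gWAT, among them Atp5g1, a subunit of the proton ring, at -0.63 (SE 0.17). The members with the largest differences were Ndufa8 of complex I, at 0.98 (SE 0.19), Uqcrfs1 of complex III, at 1.07 (SE 0.20), and Atp5j2 of complex V, at 0.79 (SE 0.20). The mean level of complex I was 6.90, 6.83, 6.76 and 7.28 in BAT-KO and 6.62, 6.60, 6.56 and 5.99 in the gWAT arrays labelled KO. The tissues did not overlap, and replicate 4, from 14-week mice, was the highest in BAT and the lowest in gWAT. Among 16-week mice alone the median of complex I was 0.23, that of complex III 0.34, of complex V 0.09 and of fatty acid oxidation 0.52. When the slide was a block, the medians were 0.86 for complex I and 1.14 for fatty acid oxidation, with 4 and 12 members higher in BAT-KO, and the calls of Hadha (1.12), Ndufa8 (0.90), Uqcrfs1 (1.1), Atp5j2 (1.12) and Atp5g1 (-0.55) were lost at these differences.

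Of 21 glycolytic genes tested, 8 were higher in BAT-KO and none in gWAT, with a median of 0.27 against 1.79 in controls. Aldoc, the aldolase isoform of brain, was 4.25, 3.99, 3.76 and 4.02 in BAT-KO and -0.08, -0.16, 0.47 and -0.20 in gWAT. It did not differ between depots past the threshold in controls (0.68, adjusted p = 0.388), and the change of 3.32 passed the test (SE 0.74, adjusted p = 0.00206), while its call was lost with the slide as a block (1.86). Pgam2, the muscle isoform of the targeted enzyme, differed by 1.82 (SE 1.02, adjusted p = 0.172) and by -0.02 without the 2 BAT-KO arrays that carried muscle transcripts. Cox6a2, a cytochrome oxidase subunit of muscle and brown fat, was 4.64, 4.73, 5.0 and 4.56 in BAT-KO and 4.40, 3.99, 4.36 and 3.40 in the gWAT arrays labelled KO. Its means in controls were -4.57 in BAT, where 1 of 4 arrays was well above background, and -2.20 in gWAT. The difference of 0.70 between knockout-labelled tissues (SE 0.22, adjusted p = 0.0317) was lost without replicate 1, 2 or 3 of BAT-KO (0.73, 0.70 and 0.61) or replicate 2 of gWAT (0.68), under spike-in scaling (0.52), without the muscle-bearing arrays (0.61) and with the slide as a block (0.85).

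Lipogenesis lay on the other side. Of 19 genes tested, 10 were higher in the gWAT arrays labelled KO and 1 in BAT-KO, with a median of -0.49, whereas 13 were higher in BAT and none in gWAT in controls, with a median of 1.2. The change toward gWAT passed the test in 17 of 19. Slc25a1, the mitochondrial citrate carrier, was 4.21, 4.19, 3.92 and 4.84 in BAT-KO and 7.50, 7.27, 7.27 and 6.67 in gWAT. The difference was -2.89 (SE 0.24, adjusted p = 3.52e-05), against 0.64 in controls. Thrsp, a lipogenic nuclear protein, differed by -0.78 (SE 0.19, adjusted p = 0.00917), and fatty acid synthase (Fasn) by -0.19 (SE 0.16, adjusted p = 0.348). Elovl6, the member higher in BAT-KO, differed by 0.58 (SE 0.20, adjusted p = 0.0422), a call lost without replicate 1, 2 or 4 of BAT-KO (0.57, 0.63 and 0.42) or replicate 2, 3 or 4 of gWAT (0.50, 0.51 and 0.60), under spike-in scaling (0.40) and in 16-week mice alone (0.44). With the slide as a block, 2 members were higher in gWAT and 1 in BAT-KO, and the calls of Thrsp (-0.35) and Elovl6 (0.77) were lost.

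White fat and adipokine genes were higher in the gWAT arrays labelled KO in 24 of 27 cases and higher in BAT-KO in 1, Gadd45a, a stress-response gene, at 1.81 (SE 0.36). The median was -1.74, against -2.02 in controls. Resistin (Retn) was 4.19, 3.48, 2.65 and 2.82 in BAT-KO and 8.21, 8.46, 8.09 and 7.85 in gWAT, a difference of -4.87 (SE 0.32, adjusted p = 1.23e-05) that was not shown to differ from the -4.68 in controls (adjusted p of the change 0.8). Adipsin (Cfd) was 4.82, 4.51, 4.21 and 4.44 in BAT-KO and 9.11, 9.17, 8.74 and 8.18 in gWAT. Its difference of -4.31 (SE 0.23) was larger in size than the -1.28 in controls (adjusted p of the change 1.59e-04). Angiotensinogen (Agt) went the other way, from -9.25 in controls to -4.74 (SE 0.24, adjusted p of the change 2.87e-04). The natriuretic peptide clearance receptor Npr3 differed by -2.90 (SE 0.22), and the protease inhibitor gene Serpina3k by -5.18 (SE 0.87).

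Most adipocyte markers, a list that also holds the adipokines resistin and leptin, were higher in gWAT too. Of 10 adipocyte markers, 7 were higher in the gWAT arrays labelled KO and none in BAT-KO, with a median of -1.2, against -0.15 in controls. Their mean level was 4.99 to 5.54 in BAT-KO and 6.43 to 6.88 in gWAT, without overlap. Cidec, which enlarges lipid droplets, differed by -2.28 (SE 0.15, adjusted p = 1.18e-05) and by -0.04 in controls. Adiponectin (Adipoq) differed by -1.86 (SE 0.21), perilipin 1 (Plin1) by -1.26 (SE 0.23) and leptin (Lep) by -1.14 (SE 0.15). The calls of Plin1 (-0.93) and Lep (-0.98) were lost with the slide as a block, as was that of Gadd45a (1.29), whereas those of the other 7 genes named here, Serpina3k included, held.

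**Figure D3:**
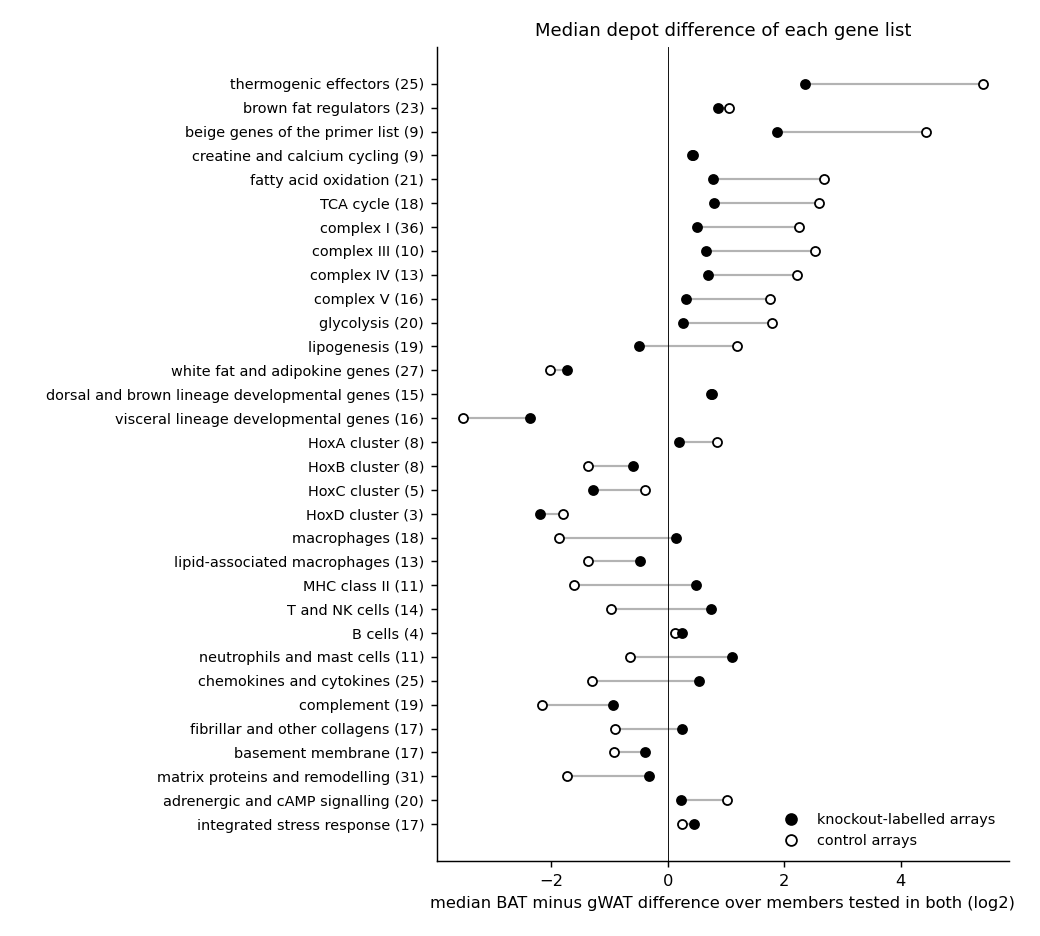
Median depot difference of 32 gene lists (x axis, BAT minus gWAT, log2) in knockout-labelled arrays (filled) and in control arrays (open), over the members tested in both, whose number is in parentheses, with genes below background at their measured level. Energy metabolism lists lie closer to 0 in knockout-labelled arrays, from 2.26 to 0.50 for complex I, while the medians of white fat genes are -1.74 and -2.02.

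Of 17 dorsal and brown lineage genes tested, 10 were higher in BAT-KO and 1, Tbx1, was higher in the gWAT arrays labelled KO. Of 17 visceral lineage genes tested, 12 were higher in gWAT and 3 in BAT-KO, with medians of 0.91 and -2.28 for the lists. The change from controls passed the test in 5 of 17 genes of each list, against 48.3% over all genes. These shares are not alike, as many members were dim. Only 8 dorsal and 11 visceral genes were well above background on all 8 knockout-labelled arrays, against 13147 of all 14449 genes. In 5 dorsal and 4 visceral genes no array of a knockout-labelled tissue was well above background, so that a change can hardly be read. Zic1, a zinc finger factor of dorsal mesoderm, was 0.90, 1.41, 1.41 and 1.33 in BAT-KO and not well above background on any gWAT array labelled KO. It was at least 46.0-fold higher in BAT-KO (adjusted p = 1.45e-06). The T-box factor Tbx15 was likewise not well above background in gWAT, and was at least 6.30-fold higher (adjusted p = 2.71e-06). In controls, where neither was well above background in gWAT, the bounds were 66.0-fold for Zic1 and 3.29-fold for Tbx15, so no change from controls can be read for these 2 genes.

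Wt1, the Wilms tumor factor of visceral fat precursors and mesothelium, was 1.41, 1.98, 2.15 and 1.22 in the gWAT arrays labelled KO and not well above background in BAT-KO. It was at least 85.4-fold higher in gWAT (adjusted p = 1.77e-06). The factors Tcf21 and Bnc1, also not well above background in BAT-KO, were at least 7.60-fold and at least 5.41-fold higher in gWAT. The nuclear receptor Nr2f1 differed by -2.23 (SE 0.12) and the Wnt agonist Rspo1 by -4.66 (SE 0.38), against -2.50 and -5.33 in controls. The 3 visceral genes higher in BAT-KO were Osr2 and, named after their values were seen, Irx3 and Irx5. Osr2, a zinc finger factor, was 0.04, 0.01, 0.47 and 0.48 in BAT-KO and -2.94, -3.71, -3.38 and -3.08 in gWAT, a difference of 3.52 (SE 0.20, adjusted p = 5.62e-06) that exceeded the 1.57 in controls (adjusted p of the change 0.0115).

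Several of these genes also mark mesothelium, the sheet of cells that covers visceral fat. All 11 mesothelial markers tested were higher in the gWAT arrays labelled KO, with a median of -6.53, or -5.81 with the 5 that were below background in BAT-KO set at their bound, and their mean level was -5.23 to -4.49 in BAT-KO and 0.49 to 1.49 in gWAT. Mesothelin (Msln) differed by -7.13 (SE 0.54) and was well above background on 3 of 4 BAT-KO arrays, and the uroplakin Upk1b, not well above background in BAT-KO, was at least 66.9-fold higher in gWAT. Wt1 and Bnc1 stand on both lists, and the part of mesothelial RNA in the visceral genes was not tested. Of 13 epididymal and testicular markers on the array, 4 were detected well enough to be tested and none was higher in gWAT.

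In the HoxC cluster all 5 genes tested were higher in the gWAT arrays labelled KO, and the mean level was -1.55 to -0.81 in BAT-KO and 1.70 to 2.25 in gWAT. Hoxc9 was -6.23, -5.96, -5.02 and -6.37 in BAT-KO, where only replicate 3 was well above background, and 1.94, 3.16, 1.98 and 1.93 in gWAT. The difference was -8.14 (SE 0.36, adjusted p = 2.48e-06), and in controls, with no BAT array well above background, Hoxc9 was at least 49.1-fold higher in gWAT. Its neighbour Hoxc8 differed by -4.92 (SE 0.38) and Hoxc4, at the other end of the cluster, by -0.70 (SE 0.18). Hoxd9 and Hoxd8 differed by -2.28 (SE 0.31) and -1.63 (SE 0.16). In HoxB, Hoxb2 was higher in BAT-KO, at 1.0 (SE 0.13), and Hoxb8 higher in gWAT, at -1.51 (SE 0.43). Hoxb8 lost its call without the 2 muscle-bearing arrays, in 16-week mice alone and with the slide as a block. HoxA had 2 of 8 members higher in BAT-KO, near the 23.4% of all genes, and 1 higher in gWAT, and Hoxa5 differed by 1.12 (SE 0.21). The median of HoxA was 0.20, and turned to -0.31 with the slide as a block.

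Lhx8, a brown fat marker, differed by 0.75 (SE 0.22) at its brighter probe and by 6.54 at its other probe, so the probes disagreed on the size. Tbx1, well above background on 3 of 4 BAT-KO arrays, differed by -2.19 (SE 0.38). When the slide was a block, 11 visceral genes were higher in gWAT, 5 dorsal genes were higher in BAT-KO and 3 of 3 HoxD genes were higher in gWAT. Zic1, Tbx15, Wt1, Tcf21, Bnc1, Nr2f1, Rspo1, Osr2, Hoxc8, Hoxc9 and Hoxa5 were among those called, while the calls of Lhx8 (0.30), Hoxb2 (0.82) and Hoxc4 (-0.76) were lost.

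**Figure D4:**
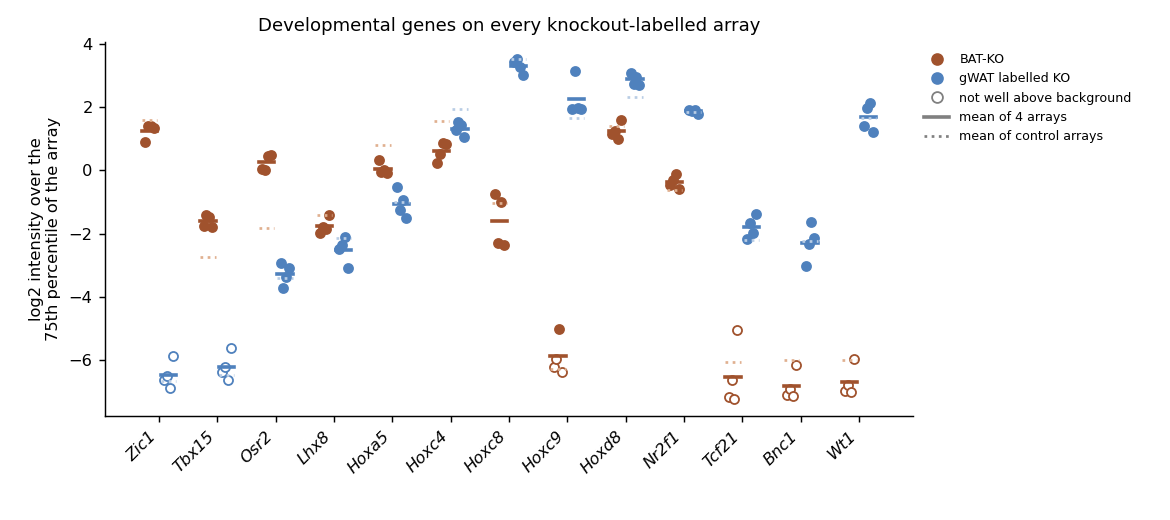
Level of 13 developmental genes on each knockout-labelled array (y axis, log2 intensity over the 75th percentile of the array), with BAT-KO in brown and gWAT labelled KO in blue. Open symbols are arrays on which the probe was not well above background, solid bars are means of 4 arrays and dotted bars means of the 4 control arrays of the tissue. Zic1 and Tbx15 were detected in BAT-KO alone and Tcf21, Bnc1 and Wt1 in gWAT alone, and the control means of Zic1 and Wt1 lie near those of the knockout-labelled arrays.

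Macrophage genes did not divide knockout-labelled depots the way they divided controls. Of 18 macrophage genes tested, 3 were higher in BAT-KO and 1 in the gWAT arrays labelled KO, with a median of 0.14. In controls 17 of 18 were higher in gWAT, with a median of -1.87, and the change toward BAT passed the test in 15 of 18. The mean level of the list was 2.51, 2.53, 2.65 and 2.11 in BAT-KO and 1.85, 2.18, 2.57 and 2.88 in gWAT, so that the tissues overlapped. The macrophage marker Adgre1 differed by 0.33 (SE 0.42, adjusted p = 0.547), Cd68 by 0.20 (SE 0.43, adjusted p = 0.722), and the mannose receptor Mrc1 by 0.86 (SE 0.22, adjusted p = 0.0132). Fcgr1, the high-affinity IgG receptor, was between 0.75 and 1.30 in BAT-KO and between -0.94 and -0.09 in gWAT, a difference of 1.61 (SE 0.21, adjusted p = 4.53e-04). The call of Mrc1 was lost without the muscle-bearing arrays (0.58) and under spike-in scaling (0.69), and with the slide as a block no macrophage gene passed toward BAT-KO, with Mrc1 at 1.26 (SE 0.40) and Fcgr1 at 1.51 (SE 0.52).

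Genes of lipid-associated macrophages, which cluster around dying adipocytes, were higher in gWAT in 7 of 14 cases, with a median of -0.43. The 7, named after their values were seen, were Cd9, Lpl, Cd36, Fabp5, Ctsd, Ctsb and Apoe, of which Lpl and Cd36 handle lipid in adipocytes too. In controls 8 of 13 members tested were higher in gWAT, the same direction, with a median of -1.36. Itgax, the integrin CD11c, was 0.94, 0.83, 0.36 and 0.68 in BAT-KO and 0.63, 0.52, 0.47 and 3.32 in gWAT. Replicate 4 of gWAT stood far above the other 7 arrays. The lipid receptor Trem2 (5.23) and the glycoprotein Gpnmb (4.67) were also at their highest on that array, which came from a 14-week mouse. Their differences were -0.40 (SE 0.54, adjusted p = 0.568) and -0.19 (SE 0.61, adjusted p = 0.823), and turned to 0.15 and 0.49 without it. Osteopontin (Spp1) differed by 1.25 (SE 0.86, adjusted p = 0.258). With the slide as a block no gene of the lipid-associated macrophage list passed, and its median was 0.01. Without the muscle-bearing arrays 3 of its members were higher in gWAT.

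In MHC class II, 4 of 11 genes were higher in BAT-KO and none in gWAT, with a median of 0.49, against -1.60 in controls, where 10 were higher in gWAT. The change passed the test in 10 of 11. H2-Aa differed by 0.49 (SE 0.23, adjusted p = 0.108) and H2-Ob, a subunit of the peptide-loading regulator H2-O, by 1.03 (SE 0.14, adjusted p = 6.35e-04). Of 16 T and NK cell genes, 6 were higher in BAT-KO and none in gWAT. The granule protease Gzma differed by 1.65 (SE 0.29, adjusted p = 0.00204), whereas the T cell receptor subunit Cd3e differed by 0.10 (SE 0.16, adjusted p = 0.619). B cell genes were mostly near background, with 4 of 9 tested.

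In a list of 11 neutrophil and mast cell genes, 6 were higher in BAT-KO and 1 in gWAT, and the 6 were Mpo of neutrophil granules and the mast cell genes Cpa3, Mcpt4, Cma1, Tpsb2 and Fcer1a, of which all but Cpa3 were named after their values were seen. Carboxypeptidase A3 (Cpa3) was -0.33, 1.27, 1.57 and 0.88 in BAT-KO and -2.53, -2.09, -2.61 and -1.63 in gWAT. The difference was 3.06 (SE 0.40, adjusted p = 4.57e-04), whereas in controls Cpa3 had been higher in gWAT, at -2.11, and the change of 5.17 passed the test (SE 0.61, adjusted p = 2.65e-05). The array of BAT-KO with the most muscle RNA, replicate 1, was the lowest of its group, and the median of the list was 1.1, and 1.59 without replicates 1 and 3. With the slide as a block Cpa3 differed by 1.60 and no gene of the list passed.

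Of 29 chemokine and cytokine genes tested, 9 were higher in BAT-KO and 3 in gWAT, beside 23.4% and 22.7% of all genes, with a median of 0.73 against -1.30 in controls. Ccl4, a chemokine that attracts leukocytes, was 1.83, 0.86, -1.18 and 2.0 in BAT-KO and -1.2, -2.59, -3.21 and -1.64 in gWAT, a difference of 3.04 (SE 0.72, adjusted p = 0.00846). The B cell chemokine Cxcl13 ranged from -5.08 to 0.08 over the gWAT arrays and differed by 2.14 (SE 0.97, adjusted p = 0.101). Serum amyloid A3 (Saa3), an acute-phase protein, was -0.53, -0.48, 0.16 and -0.03 in BAT-KO and 3.34, 5.69, 6.57 and 2.93 in gWAT, a difference of -4.86 (SE 0.75, adjusted p = 0.00108). In the complement system 12 of 19 genes were higher in gWAT and 1 in BAT-KO, the pore component C7, at 0.88 (SE 0.24). The median of complement was -0.93, against -2.15 in controls, where 17 of 19 were higher in gWAT. Component C3 differed by -1.46 (SE 0.21) and by 0.04 in controls, a change that passed the test (adjusted p = 9.02e-04), and C4b differed by -1.51 (SE 0.20), against -4.82. The calls of Ccl4 (3.29), Saa3 (-5.88), H2-Ob (1.07) and Fcgr1 (1.51) were lost with the slide as a block at differences close to or above those reported, that of C4b was lost at -0.69, C7 turned to -0.22, and those of C3 and Gzma held.

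**Figure D5:**
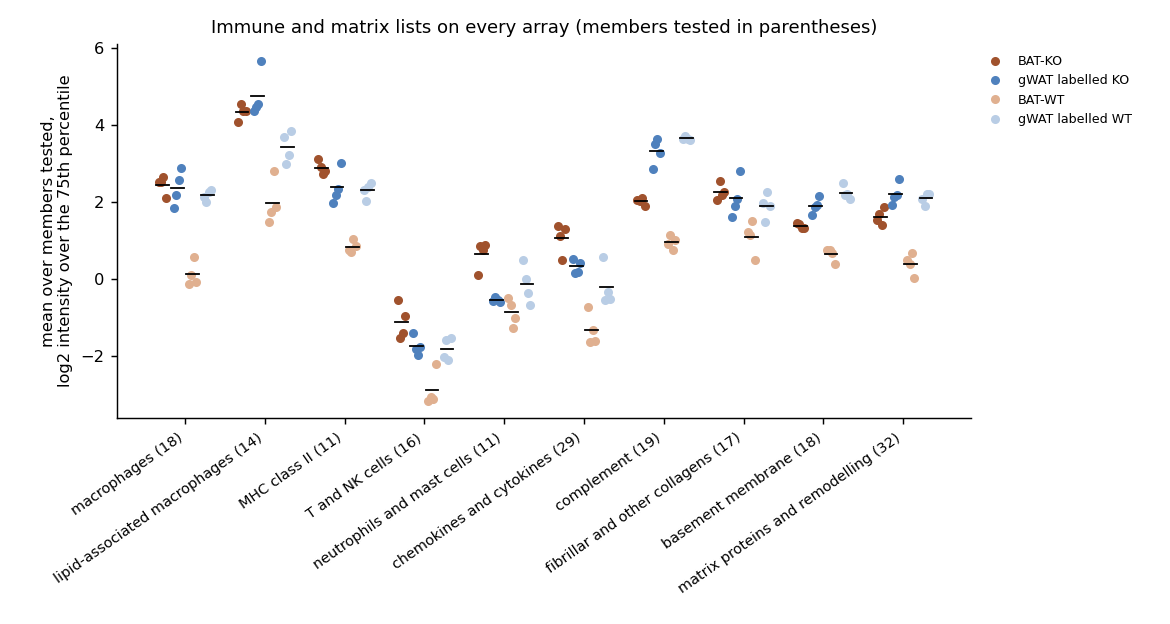
Mean level of 10 immune and matrix gene lists on each of the 16 arrays (y axis, mean over the members tested of the log2 intensity over the 75th percentile of the array). Dark points are knockout-labelled and pale points control arrays, in brown for BAT and blue for gWAT, and bars are means of 4 arrays. BAT-KO and gWAT labelled KO overlap for macrophage genes (2.11 to 2.65 and 1.85 to 2.88) and stand apart for complement (1.89 to 2.11 and 2.86 to 3.64), and BAT-WT is the lowest group in each list.

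Of 17 fibrillar and other collagens tested, 3 were higher in BAT-KO and 6 in the gWAT arrays labelled KO, with a median of 0.24. Over all genes tested these shares were 23.4% and 22.7%. Col1a1 and Col3a1, the main fibrillar collagens, differed by 0.81 (SE 0.38, adjusted p = 0.113) and 0.81 (SE 0.35, adjusted p = 0.0884). Both passed without replicate 4 of gWAT, at 1.14 and 1.09. Col6a3, the chain that yields endotrophin, was 4.44, 5.34, 4.86 and 4.72 in BAT-KO and 2.62, 2.95, 2.87 and 4.39 in gWAT. It differed by 1.63 (SE 0.38, adjusted p = 0.00764), against 0.03 in controls (adjusted p of the change 0.0206), and lost its call under spike-in scaling (1.46). Col6a5, another chain of the family, differed by -6.27 (SE 0.57) in the opposite direction.

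In the basement membrane 9 of 18 genes were higher in gWAT and 3 in BAT-KO, beside 22.7% and 23.4% of all genes tested. The laminin chain Lama4 differed by -0.91 (SE 0.14, adjusted p = 0.0011). Lama1 was 1.86, 1.49, 2.10 and -0.01 in BAT-KO and 0.19, -1.17, -0.62 and -0.89 in gWAT, a difference of 1.98 (SE 0.47, adjusted p = 0.00866). In controls no BAT array was well above background for it, and it was at least 16.2-fold higher in gWAT. Replicate 4 of BAT-KO lay below replicate 1 of gWAT. Of 32 other matrix and remodelling genes, 14 were higher in gWAT and 1 in BAT-KO, with a median of -0.31 against -1.73 in controls. Fibronectin (Fn1) was 3.05, 3.86, 3.69 and 3.71 in BAT-KO and 4.30, 5.35, 5.79 and 6.16 in gWAT, a difference of -1.82 (SE 0.37, adjusted p = 0.0044). Decorin (Dcn) differed by -1.11 (SE 0.15) and fibromodulin (Fmod), which binds collagen fibrils, by -4.32 (SE 0.32). The matrix protease Mmp3 was the member higher in BAT-KO, between 1.62 and 2.15 against -2.13 to -0.76 in gWAT, a difference of 3.32 (SE 0.28, adjusted p = 4.62e-05). With the slide as a block, Dcn, Fmod, Mmp3 and Col6a5 were called and Fn1 (-1.38), Lama1 (2.26), Lama4 (-0.94) and Col6a3 (1.33) were not. Lama1 also lost its call without the muscle-bearing arrays (1.36).

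Of 10 endothelial genes 1 was higher in each tissue, with Vwf, the clotting factor carrier, at -1.84 (SE 0.29) and the adhesion molecule Pecam1 at 0.17 (SE 0.29, adjusted p = 0.654), which turned to -0.01 under spike-in scaling and to -0.24 with the slide as a block. Smooth muscle actin (Acta2) was 2.80, 2.90, 3.53 and 2.71 in BAT-KO and 5.51, 6.25, 6.27 and 5.65 in gWAT, a difference of -2.93 (SE 0.24, adjusted p = 3.7e-05). Skeletal actin (Acta1) was also higher in the gWAT arrays labelled KO, at -4.42 (SE 0.85, adjusted p = 0.00309), although the muscle transcripts lay in BAT. It reached -5.86 without replicates 1 and 3 of BAT-KO, and its call (-2.72) and that of Vwf (-1.58) were lost with the slide as a block.

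The integrated stress response, by which cells slow translation and induce amino acid genes, had more members higher in BAT-KO. Of 20 genes tested 8 were higher in BAT-KO and 2 in gWAT, with a median of 0.73 against 0.25 in controls. Gdf15, a stress hormone, was 4.85, 5.23, 4.71 and 5.14 in BAT-KO and 1.97, 1.60, 0.04 and 1.37 in gWAT. The difference was 3.74 (SE 0.37, adjusted p = 1.02e-04), whereas it was -2.50 in controls, and the change of 6.24 passed the test (SE 0.89, adjusted p = 9e-05). Replicates 2 and 4 of BAT-WT were not well above background for Gdf15, so the size of that change rests partly on dim signal. Fgf21, another stress hormone, was 2.23, 1.81, 1.72 and 2.25 in BAT-KO and 2.24, 0.68, -0.42 and -0.12 in gWAT, and its difference of 1.40 (SE 0.51, adjusted p = 0.0501) missed the threshold. Phgdh, which opens the serine synthesis pathway from the substrate of Pgam1, was higher in gWAT, at -2.54 (SE 0.17, adjusted p = 1.41e-05), against -5.87 in controls. The calls of Phgdh (-1.65) and Gadd45a (1.29) were lost with the slide as a block, and that of Gdf15 held.

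Among genes well above background on all 8 arrays, the 5 with the largest differences toward BAT-KO were Mal, Ppargc1a, Slit1, Fabp3 and S100b. Mal, a membrane protein of myelin and epithelia, was 3.13, 3.08, 3.18 and 2.53 in BAT-KO and -2.42, -2.77, -3.53 and -2.03 in gWAT, a difference of 5.67 (SE 0.30). The axon guidance factor Slit1 differed by 5.52 (SE 0.40), against -1.05 in controls, where replicates 1 and 2 of BAT-WT were not well above background. Toward gWAT they were Slpi, Oxtr, Serpina1e, Serpina1c and Col6a5. The protease inhibitor Slpi differed by -7.46 (SE 0.33) at its brighter probe and by 0.02 at the other. The oxytocin receptor Oxtr was between -3.36 and -2.20 in BAT-KO and 3.95, 3.84, 3.02 and 3.59 in gWAT. Its difference of -6.44 (SE 0.28, adjusted p = 2.47e-06) was larger in size than the -4.23 in controls (adjusted p of the change 8.48e-04). Serpina1e and Serpina1c, near-identical alpha-1-antitrypsin genes whose probes may not separate them, ranged from 0.67 to 7.14 and from 0.97 to 7.32 over the gWAT arrays, with replicate 1 the lowest, and differed by -6.40 (SE 1.2) and -6.30 (SE 1.17). All 10 kept their call with the slide as a block.

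Among genes well above background on all 16 arrays, the depot difference moved most toward gWAT for Otop1, Cpt1b, Egln3, Cyp2b10 and Acot1. The thioesterase Acot1 differed by 5.51 in controls and by 0.87 between knockout-labelled tissues (SE 0.40, adjusted p = 0.108). The cytochrome Cyp2b10 was 1.30, -2.17, 1.1 and -1.06 in BAT-KO, high on the 2 arrays with muscle transcripts, and between -0.93 and -0.35 in gWAT. It differed by 0.32 (SE 0.71, adjusted p = 0.733) and by -1.08 without those arrays, against 5.22 in controls. Col2a1, Cpa3, Nnat and Plscr2 were among the 5 genes whose difference moved most toward BAT. The cartilage collagen Col2a1 differed by 3.45 (SE 0.42) against -1.99 in controls, and the phospholipid scramblase Plscr2 by 2.68 (SE 0.25) against -2.19. Neuronatin (Nnat) differed by -2.55 (SE 0.63) against -7.44, with replicate 1 of gWAT at 0.61 and the others between 3.34 and 3.72. The calls of Col2a1 (0.43) and Nnat (-1.63) between knockout-labelled tissues were lost with the slide as a block, and that of Nnat also without the muscle-bearing arrays.

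Because of the label problem, BAT-KO was also set against the gWAT arrays labelled WT. This comparison uses the same BAT-KO arrays, and 3 of its gWAT arrays lay on the slide of BAT-KO. It gave 7763 calls among 14631 genes tested (53.1%), 4326 higher in BAT-KO (29.6%) and 3437 higher in gWAT (23.5%). Ucp1 was at least 8630-fold higher in BAT-KO in it. Cidea differed by 6.33 in it and by 2.92 against the gWAT arrays labelled KO, and Ppargc1a by 5.07 and 5.58. Complex I had a median of 1.11 against those labelled WT, with 31 of 36 genes higher in BAT-KO. Wt1, not well above background in BAT-KO, was at least 83.4-fold higher in gWAT labelled WT. Other lists turned with the label. Lipogenesis, which had 10 of 19 members higher in gWAT labelled KO and 1 in BAT-KO, had 5 higher in BAT-KO and 2 higher in gWAT labelled WT, and its median went from -0.49 to 0.20. Lipid-associated macrophage genes, of which 7 of 14 were higher in gWAT labelled KO, had 8 higher in BAT-KO and 3 higher in gWAT labelled WT, with medians of -0.43 and 0.81. Macrophage genes had a median of 0.51, with 8 of 18 higher in BAT-KO and 4 in gWAT. On the shared slide alone, the mean of Cidea was 6.36 higher in the 4 BAT-KO arrays than in the 3 gWAT arrays labelled WT, that of Cpt1b was 6.74 higher and that of Hoxc8 differed by -4.96.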

How the data were processed

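Whole-tissue RNA was hybridised to 1-colour Agilent mouse arrays, 4 per group. Per the file headers, the deposited intensity of each spot is the background-subtracted processed signal of Feature Extraction 10.7.1.1, and the deposited marks of 0 or 1 state whether a spot is well above background, saturated or an outlier. The authors' own table of linear intensities, normalized in GeneSpring GX with unstated settings, served as an alternative.

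Here each intensity was scaled to its array's 75th percentile and put on the log2 scale. Spots of a probe were averaged. Probes were named through RefSeq GRCm38.p6 tables, in which 32994 of 35886 probes with a RefSeq accession (91.9%) matched 1 symbol. The brightest probe stood for each gene. A gene was tested if 1 group or more had it well above background on all 4 arrays, by limma 3.58.1 in R 4.3.3 (lmFit and eBayes, Benjamini-Hochberg adjusted p below 0.05, no covariate), which was first tried on simulated data. Pgam1 was compared with two-sided exact permutation tests. The change in depot difference was the interaction over all 16 arrays. Plots used matplotlib 3.10.9 in Python 3.11.15.

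The members and the 41 gene lists were chosen with earlier results of these data known. Genes were named if marked in a list, if they had a list's largest called difference in either direction, or if they were among the 5 largest called differences or interactions in either direction among genes above background on all arrays compared. Some genes that this rule names are not reported here. Alternatives covered scaling, background correction, filters, probe averaging, slide and replicate blocks, age, single arrays left out and, chosen after seeing the data, the arrays with muscle transcripts. Labels give 100 ng of input RNA.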

Additional observations from a re-analysis of the deposited data

Results flagged for a closer look

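In 18 of 238 groups of 4 arrays tested with Dixon's criterion, the highest or lowest array stood apart from the other 3. Chance marks about 1 group in 20. On replicate 1 of BAT-KO these were Zic1 at 0.90 (others 1.33 to 1.41), Kcnk3 at 4.64 (others 5.23 to 5.29), Atp5g1 at 4.58 (others 5.0 to 5.07) and Gpnmb at 1.71 (others 2.60 to 2.76). On replicate 2 of BAT-KO it was Agt at -0.44 (others -1.12 to -1.02). On replicate 4 of BAT-KO these were Cidec at 7.60 (others 7.14 to 7.19), C7 at 1.33 (others 0.62 to 0.67) and Mal at 2.53 (others 3.08 to 3.18). On replicate 1 of gWAT labelled KO these were Nnat at 0.61 (others 3.34 to 3.72), Cyp2b10 at -0.93 (others -0.43 to -0.35) and Col6a5 at 1.90 (others 3.55 to 3.77). On replicate 2 of gWAT labelled KO it was Hoxc9 at 3.16 (others 1.93 to 1.98). On replicate 3 of gWAT labelled KO these were Plscr2 at -0.65 (others -1.51 to -1.36) and Hoxd9 at -0.66 (others -1.95 to -1.81). On replicate 4 of gWAT labelled KO these were Agt at 3.16 (others 3.97 to 4.08), Ndufa8 at 3.68 (others 4.26 to 4.31), Atp5j2 at 6.32 (others 6.96 to 7.06) and Itgax at 3.32 (others 0.47 to 0.63). 

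The depot difference itself differed between knockout-labelled and control arrays in 7162 genes, by limma's test of the interaction over all 16 arrays. Among named genes with signal in all 4 groups, the change was toward gWAT for Cidea (-4.64, adjusted p = 2.59e-06), Dio2 (-3.41, adjusted p = 0.0125), Elovl3 (-5.30, adjusted p = 0.00137), Cox7a1 (-3.80, adjusted p = 1.94e-05), Cox8b (-3.66, adjusted p = 2.14e-05), Otop1 (-6.05, adjusted p = 6.52e-06), Cpt1b (-5.93, adjusted p = 1.7e-06), Fabp3 (-4.22, adjusted p = 0.000279), Prdm16 (-0.80, adjusted p = 0.0458), Acadl (-1.89, adjusted p = 0.000109) and Cs (-1.84, adjusted p = 6.24e-05). It was also toward gWAT for Hadha (-3.25, adjusted p = 2.23e-06), Fasn (-1.47, adjusted p = 0.00145), Slc25a1 (-3.53, adjusted p = 4.4e-05), Thrsp (-2.16, adjusted p = 8.36e-05), Cfd (-3.02, adjusted p = 0.000159), Pgam1 (-2.69, adjusted p = 2.59e-06), Egln3 (-5.08, adjusted p = 1.04e-06), Acot1 (-4.64, adjusted p = 0.00116) and Cyp2b10 (-4.89, adjusted p = 0.0019).

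The change was toward BAT for Agt (4.51, adjusted p = 0.000287), Adgre1 (2.11, adjusted p = 0.00359), Cd68 (1.58, adjusted p = 0.0325), Mrc1 (3.03, adjusted p = 8.55e-06), H2-Aa (2.32, adjusted p = 3.46e-05), Cpa3 (5.17, adjusted p = 2.65e-05), C4b (3.31, adjusted p = 0.000228), Fn1 (1.94, adjusted p = 0.00777), Col1a1 (1.41, adjusted p = 0.0406), Gdf15 (6.24, adjusted p = 9e-05), Aldoc (3.32, adjusted p = 0.00206), Nnat (4.89, adjusted p = 0.000367), Plscr2 (4.87, adjusted p = 2.81e-06), Col2a1 (5.44, adjusted p = 0.000313) and Cox6a2 (3.07, adjusted p = 5.12e-05). The gWAT arrays carry the label problem described for Pgam1, and 3265 genes passed for this change with the slide as a fixed block.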

How the results depend on the processing

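Of the 98 called genes named, 94 to 98 kept their call and direction under each other scaling, background correction, fit or single array left out, 90 without the muscle-bearing BAT-KO arrays and 59 with the slide as a block, where 38 lost the call and 1 turned. The filter to genes above background on all arrays left 85 of them, and these kept theirs. The number of genes called was 4183 under spike-in scaling, 1271 of them higher in BAT-KO (30.4%), while Actb and Rplp0 scaling gave 1948 higher in BAT-KO (30.9%). Adding the slide as a fixed block left 1783 genes, 832 higher in BAT-KO and 951 in gWAT, and the change between knockout-labelled and control arrays passed in 3265. Over all probes, with those lacking a symbol, 12977 passed (7489 and 5488 by direction), 18185 in controls and 13886 for the change. The methods' t-test called 7573 genes unadjusted and 6057 after Benjamini-Hochberg. With each array left out in turn, 5292 to 7308 genes passed. The cause of these shifts was not tested. The correlations of same-numbered deviations between the knockout-labelled tissues were 0.140, 0.067, 0.312 and -0.164. For replicates 1 and 3 of BAT-KO the same-numbered gWAT array was the closest, and for replicates 2 and 4 it was not. Whether replicate numbers pair tissues of the same mouse cannot be read from these values. With the replicate number as a block 5838 genes passed. Precision is limited by 4 arrays a group and, for dim probes, by signal over background.

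Under spike-in scaling, the median difference was 0.74 for brown fat regulators, 0.74 for dorsal and brown lineage developmental genes, 0.07 for B cells, -0.58 for basement membrane and 0.06 for adrenergic and cAMP signalling. Under scaling by Actb and Rplp0, the median difference was 0.71 for brown fat regulators, 0.71 for dorsal and brown lineage developmental genes, -2.39 for HoxD cluster, 0.04 for B cells, -0.60 for basement membrane and 0.04 for adrenergic and cAMP signalling. After normexp background correction and quantile normalization, the median difference was 0.71 for brown fat regulators, 1.25 for beige genes of the primer list, 0.71 for dorsal and brown lineage developmental genes, -1.69 for visceral lineage developmental genes, -1.46 for HoxD cluster and 0.14 for B cells. After median centring, the median difference was 0.19 for B cells. With no filter on dim probes, the median difference was 0.66 for creatine and calcium cycling, 0.56 for dorsal and brown lineage developmental genes, -1.66 for visceral lineage developmental genes, -0.12 for HoxA cluster, -0.97 for HoxC cluster, -0.99 for HoxD cluster, 0.33 for T and NK cells, -0.66 for B cells and 0.83 for neutrophils and mast cells. Among genes above background on all arrays, the median difference was 2.01 for thermogenic effectors and 0.52 for dorsal and brown lineage developmental genes. With the mean of all probes of a gene, the median difference was 1.49 for beige genes of the primer list. Under the slide block, the median difference was 1.80 for thermogenic effectors, 1.14 for fatty acid oxidation, 1.12 for TCA cycle, 0.86 for complex I, 0.59 for complex V, 0.64 for glycolysis, -1.46 for white fat and adipokine genes, 0.54 for dorsal and brown lineage developmental genes, -2.59 for visceral lineage developmental genes, -0.31 for HoxA cluster, -1.14 for HoxB cluster, -2.75 for HoxD cluster, 0.83 for MHC class II, 0.04 for B cells, 0.74 for neutrophils and mast cells, -0.56 for basement membrane, 0.57 for adrenergic and cAMP signalling and 1.01 for integrated stress response. In 16-week mice alone, the median difference was 2.0 for thermogenic effectors, 0.66 for creatine and calcium cycling, 0.52 for fatty acid oxidation, 0.23 for complex I, 0.34 for complex III, 0.09 for complex V, -2.61 for visceral lineage developmental genes, 0.73 for neutrophils and mast cells and -0.25 for basement membrane. Without the muscle-bearing BAT-KO arrays, a setting chosen after seeing the data, the median difference was 0.74 for brown fat regulators, -0.03 for HoxA cluster, -1.98 for HoxD cluster, 0.35 for T and NK cells, 1.59 for neutrophils and mast cells and 0.45 for integrated stress response. With each array left out in turn, it ran from 2.10 to 2.68 for thermogenic effectors, from 0.64 to 1.02 for dorsal and brown lineage developmental genes, from -2.57 to -2.22 for visceral lineage developmental genes, from -2.26 to -1.97 for HoxD cluster, from 0.17 to 0.29 for B cells, from 0.84 to 1.40 for neutrophils and mast cells and from 0.04 to 0.32 for adrenergic and cAMP signalling.

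Several differences of named genes turned direction, and Pgam1 passed in 16-week mice. Of the genes that turned, C7 alone was called in the comparison reported. Under spike-in scaling, the difference was -0.08 for Cd3e and -0.01 for Pecam1. Under scaling by Actb and Rplp0, the difference was -0.10 for Cd3e and -0.03 for Pecam1. Under the slide block, the difference was 0.35 for Fasn, 0.15 for Pgam1, -0.67 for Acot1, -0.04 for Cyp2b10, 0.11 for Itgax, 0.37 for Gpnmb, -0.22 for C7, -0.17 for Fgf21 and -0.24 for Pecam1. In 16-week mice alone, the difference was -0.31 for Pgam1, 0.17 for Itgax, 0.26 for Trem2, 0.40 for Gpnmb and -0.05 for Cd3e. Without the muscle-bearing BAT-KO arrays, the difference was -1.08 for Cyp2b10, 0.02 for Gpnmb and -0.02 for Pgam2. With each array left out in turn, it ran from -0.01 to 0.71 for Adgre1, from -0.04 to 0.64 for Cd68, from -0.18 to 0.98 for Cyp2b10, from -0.79 to 0.16 for Itgax, from -0.72 to 0.15 for Trem2, from -0.50 to 0.49 for Gpnmb and from -0.00 to 0.41 for Pecam1.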

Other observations

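Fibroblast progenitors are the stromal cells from which adipocytes arise. Of 10 of their markers tested between BAT-KO and the gWAT arrays labelled KO, 2 were higher in BAT-KO and 5 in gWAT. Over all genes tested these shares were 23.4% and 22.7%. The median of the markers was -0.42, against -1.55 between control tissues. Pi16, a marker of early progenitors, was 2.78, 3.11, 3.60 and 3.94 in BAT-KO and 3.64, 4.90, 4.35 and 4.88 in gWAT, so the groups overlapped, and differed by -1.08 (SE 0.34, adjusted p = 0.0275 by limma). Pdgfra, the growth factor receptor of these cells, differed by 0.35 (SE 0.24, adjusted p = 0.257) and by -1.40 in controls, and the change of 1.76 passed the test (adjusted p = 1.91e-04). Decorin (Dcn), a proteoglycan that they secrete, differed by -1.11 (SE 0.15, adjusted p = 5.02e-04).

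Of 10 smooth muscle and pericyte genes 3 were higher in each tissue, with a median of 0.14. Of 5 red blood cell genes tested none was higher in BAT-KO and 4 were higher in gWAT, with a median of -0.77. Among these, Alas2, the first enzyme of haem synthesis in red cells, differed by -1.34 (SE 0.27, adjusted p = 0.00373). Of 13 skeletal muscle genes tested 3 were higher in BAT-KO and 1 in gWAT. Over all genes tested, 23.4% were higher in BAT-KO and 22.7% in gWAT, so the smooth and skeletal muscle counts toward BAT-KO lay near that share.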
